A study of Mus musculus with 7 samples.

Results

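The insulin and insulin-like growth factor (IGF) signaling genes examined here were 10 genes chosen by name: Insr, Igf1r, Irs1, Irs2, Foxo1, Igf1, Igfbp1, Igfbp3, Igfbp4 and Igfbp5. All 10 were among the 17537 genes listed for mouse kidney, and all 10 were among the 13976 genes with at least 1 CPM (reads scaled to the size of the library) in at least 2 libraries, which were tested. RNA was sequenced from the kidneys of 7 mice, with 1 polyA-selected library per mouse. There were 3 nondiabetic controls (C, replicates 2, 8 and 9). Per the methods of the study, age-matched controls were given the sodium citrate in which STZ was dissolved. The 2 DM-22 mice were made diabetic with streptozotocin (STZ), which destroys the beta cells of the pancreas, by intraperitoneal doses of 60 mg/kg on 5 days, and stayed hyperglycemic for 22 weeks. The 2 DM+SGLT2i mice received the same STZ and, after 16 weeks of hyperglycemia, the sodium-glucose cotransporter 2 (SGLT2) inhibitor Dapagliflozin in drinking water (25 mg/kg) over 6 weeks. All were wild-type C57BL/6 mice, 8 to 10 weeks old at the start, and the labels give only males whereas the methods of the study name both sexes. The summed level of 4 Y-linked genes lay between 97.9 and 156 CPM in all 7 libraries. The STZ model is short of insulin because beta cells are lost. The inhibitor was given to lower blood glucose, by its loss in urine, and does not replace insulin. Blood glucose and insulin of these mice were not analysed here.

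Insulin and IGF1 bind the related receptor tyrosine kinases encoded by Insr and Igf1r. The receptors phosphorylate the adaptor proteins IRS1 and IRS2, which recruit phosphoinositide 3-kinase and activate AKT, and AKT holds the transcription factor FOXO1 outside the nucleus. IGF-binding proteins (Igfbp genes) carry IGFs and set how much of them reaches the receptor. In liver, Igfbp1 and Irs2 are known as genes that FOXO1 activates and insulin lowers. In the kidney, the pathway is known for its part in tubular glucose and sodium handling and in growth of the diabetic kidney.

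For Igfbp1 and Irs2, both DM-22 mice were below all other mice, and the promoters of both genes are shown for that reason. The windows are the 250 bases before the start of each gene from RefSeq on GRCm38.p6, 5′ to 3′ along the gene, and 9 of the 10 members were found in that table. Capitals mark CAAAACA on either strand (TGTTTTG is the same letters on the opposite strand), letters known from insulin response elements.
Igfbp1, chr11:7197537-7197786, forward strand: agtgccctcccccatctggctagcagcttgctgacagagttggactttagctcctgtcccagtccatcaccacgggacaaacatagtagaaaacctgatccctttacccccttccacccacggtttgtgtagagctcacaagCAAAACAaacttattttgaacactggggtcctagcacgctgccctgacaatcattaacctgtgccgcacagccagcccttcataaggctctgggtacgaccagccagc
Irs2, chr8:11008930-11009179, reverse strand: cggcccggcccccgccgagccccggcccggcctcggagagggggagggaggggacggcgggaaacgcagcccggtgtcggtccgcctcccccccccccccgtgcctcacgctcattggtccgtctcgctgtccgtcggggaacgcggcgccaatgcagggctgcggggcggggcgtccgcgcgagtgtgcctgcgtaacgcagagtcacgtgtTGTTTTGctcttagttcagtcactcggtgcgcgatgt
The match began at -108 in Igfbp1 and at -37 in Irs2, counted from the RefSeq start that follows each window. For Irs2 the GENCODE position given below has its start at 11008458, further downstream than that RefSeq start. Irs1 had 2 matches on the opposite strand, at -111 and -32. The other letters searched, GTAAACA on both strands, the core of FOXO binding sites, were in none of the 9 windows, so that 3 windows held a match in all. Of 32851 promoter windows of the same length, 5.56% held CAAAACA and 3.17% held GTAAACA. A match is a description of the letters and does not show that a protein binds there.

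The libraries were deep, with 46456125 to 56541594 reads on listed genes, and the members rested on between 162 reads (Igfbp1 in DM-22 replicate 2) and 68141 reads (Igfbp4 in control replicate 8). Control replicate 2 stood apart from the other controls. Its root-mean-square distance in log2 CPM was 0.780 from replicate 8 and 0.789 from replicate 9, which lay 0.300 from each other, and it was closest to DM+SGLT2i replicate 2 (0.378). The summed level of 10 tubular injury markers was 6327 CPM in control replicate 2, 945 and 775 CPM in replicates 8 and 9, 2124 and 1851 CPM in DM-22 mice and 2952 and 3143 CPM in DM+SGLT2i mice. For each member, at least 1 comparison with controls is therefore also given without this library. DM+SGLT2i replicate 1 held 1215 CPM of 8 adipose markers, against 36.9 to 82.7 CPM in the other libraries. The markers of the labelled tissue were present: all 12 proximal tubule markers and all 7 podocyte markers were above 0 in every library. Whether these differences between libraries had a part in the results below was not tested.

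Per length, Igfbp3, Igfbp4 and Igfbp5 were far above the other members, Igfbp1 included (the plot of levels per kilobase). Igfbp4 was at 217 CPM per kilobase of exon (SD 103 over the 7 libraries), Igfbp5 at 123 (SD 16.8) and Igfbp3 at 63.8 (SD 26.5). Their ranges overlapped from one to the next. A gap followed, and no library of the other members exceeded 14.8 CPM per kilobase, while the lowest value of Igfbp3 was 29.9. Igfbp1 (7.61, SD 4.76), Foxo1 (7.38, SD 1.25), Insr (7.33, SD 1.35), Igf1r (6.95, SD 1.5) and Irs2 (5.25, SD 1.91 CPM per kilobase) overlapped with their neighbours in the order and did not differ beyond their spread. Irs1 followed at 2.02 (SD 0.275), below every library of Irs2, and Igf1 was the lowest at 1.16 CPM per kilobase (SD 0.341), with a range that overlapped that of Irs1. Igfbp1 had the widest spread relative to its level, with a highest library 6.03-fold above the lowest, and Igfbp5 the narrowest (1.39-fold).

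**Figure D1:**
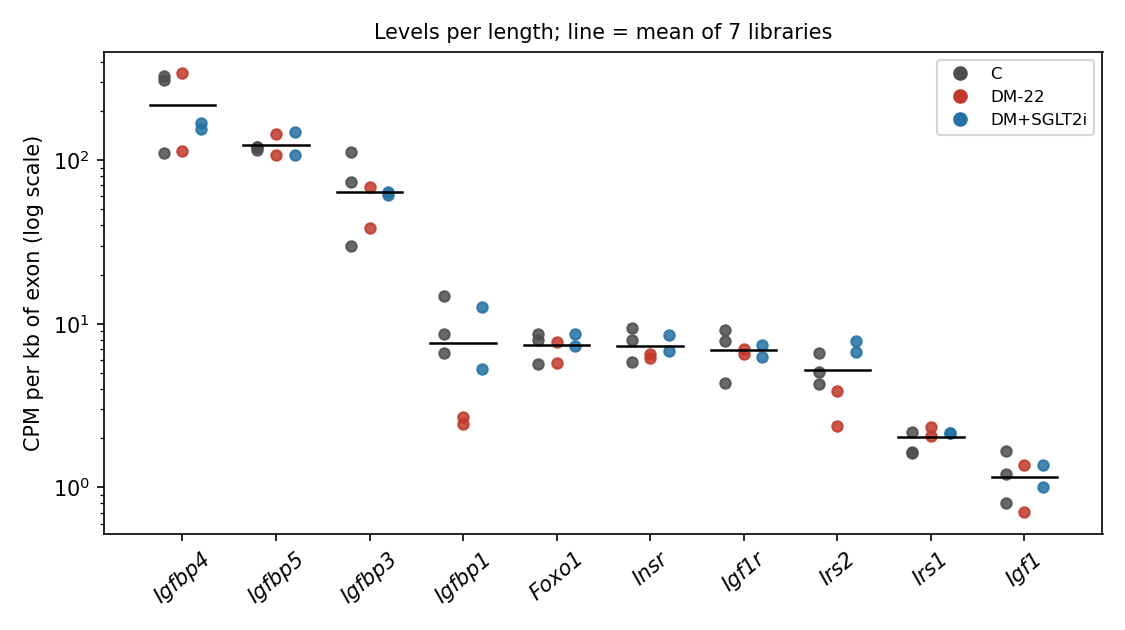
Level of each gene in CPM per kilobase of exon (log scale), with 1 point per library coloured by group and a line at the mean of 7 libraries. Igfbp4, Igfbp5 and Igfbp3 lie between 29.9 and 339, and the other 7 genes between 0.707 and 14.8.

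At an adjusted p-value under 0.05 with all 3 controls, limma called 0 members, and 0% of all genes tested, in DM-22 mice against controls, in DM+SGLT2i mice against controls, in DM+SGLT2i against DM-22 mice and in all 4 diabetic mice against controls. At an unadjusted p-value under 0.05 these comparisons held 2, 0, 2 and 1 members, against 4.47%, 1.08%, 3.91% and 2.04% of all genes. Without control replicate 2, 0 members were called at the adjusted threshold, where 0.0143%, 0.122%, 0% and 0.2% of all genes were called. At the unadjusted threshold 5, 1, 2 and 2 members were then reached, against 25.2%, 17.9%, 10.8% and 24.8% of all genes. No member is therefore described as risen or fallen, and the fold changes below are estimates with their intervals. Each library is 1 mouse, so that p-values measure the spread between single mice.

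**Figure D2:**
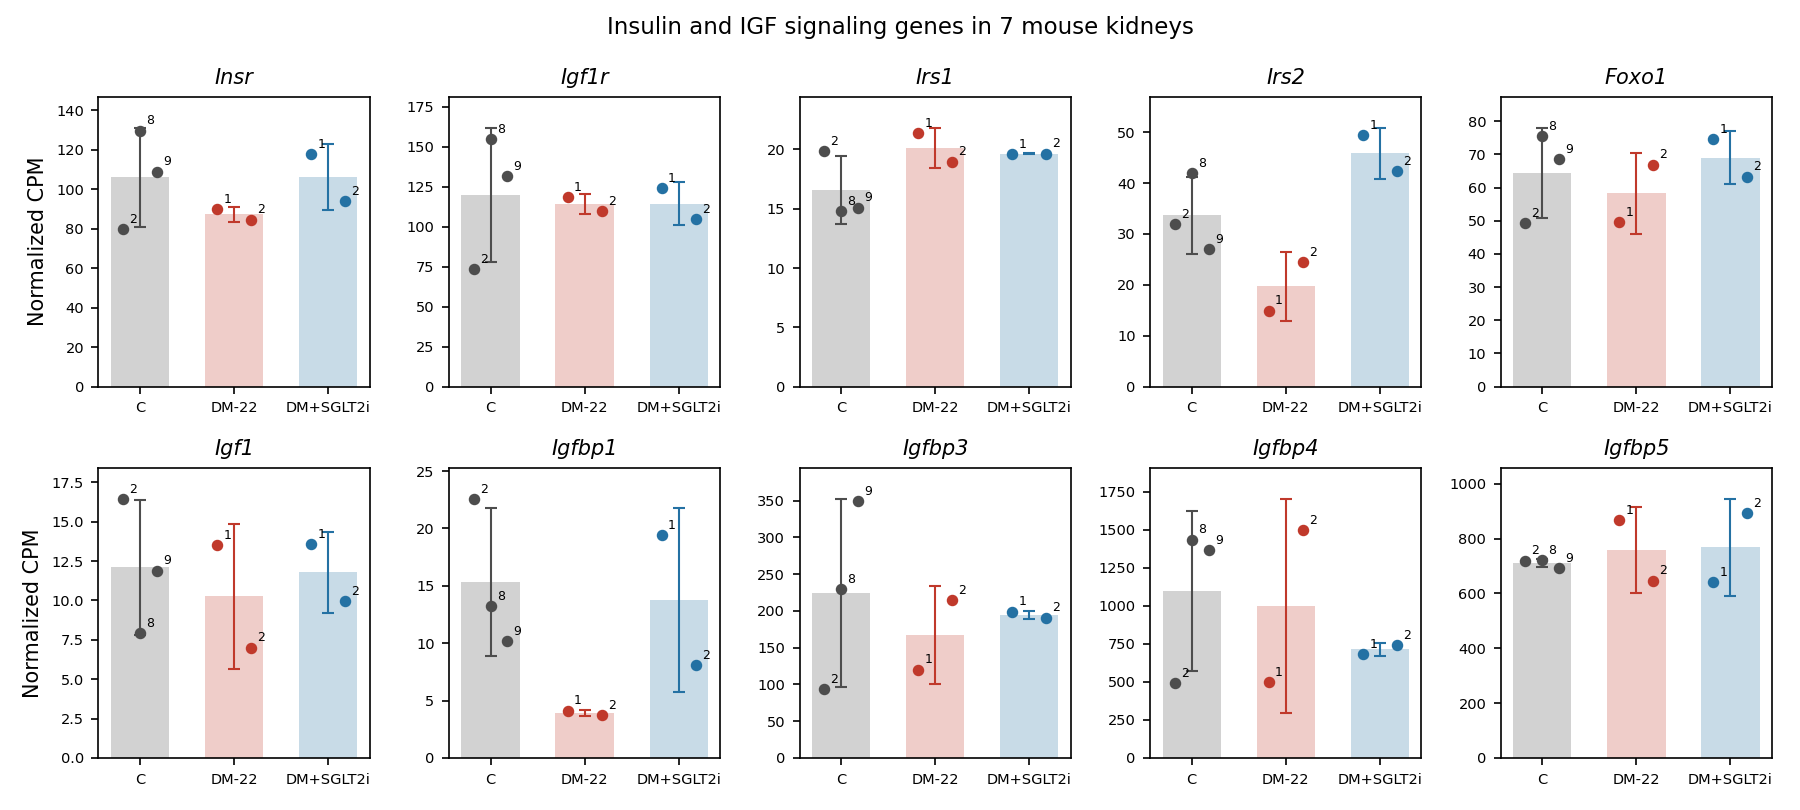
Normalized CPM of the 10 genes in each library. Points are single mice with their replicate number, bars are group means and error bars are SD (3 controls, 2 mice in each other group). For Igfbp1 and Irs2 both DM-22 points lie below all other points.

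Igfbp1 had the largest estimated difference of the members. It encodes a small secreted IGF-binding protein (ENSMUSG00000020429, chromosome 11 of GRCm38, 7197782 to 7202546, forward strand). It was at 22.6, 13.2 and 10.2 CPM in control replicates 2, 8 and 9, at 4.12 and 3.75 CPM in the DM-22 mice and at 19.4 and 8.06 CPM in the DM+SGLT2i mice. Both DM-22 mice were below each of the other 5 mice, while DM+SGLT2i mice overlapped with controls. The group means were 15.3 ± 6.47 CPM in controls (SD, n = 3), 3.93 ± 0.265 CPM in DM-22 mice (SD, n = 2) and 13.7 ± 8.02 CPM in DM+SGLT2i mice (SD, n = 2), so that controls were 3.89-fold and DM+SGLT2i mice 3.49-fold above DM-22 mice. On log2(CPM + 0.5), limma gave -1.76 for DM-22 mice against controls (standard error 0.44, 95% interval -2.82 to -0.70, adjusted p = 0.804). By p-value it ranked 36 of the 13976 genes in that comparison, and 1396 without control replicate 2. Between DM+SGLT2i and DM-22 mice it gave 1.56 (standard error 0.48, 95% interval 0.40 to 2.72, limma adjusted p = 0.881). Against controls, DM+SGLT2i mice differed by -0.20 (95% interval -1.26 to 0.86), a range that holds changes of either sign.

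Igfbp1 was highest in control replicate 2. Without that library the log2 fold change was -1.45 in DM-22 mice against controls (standard error 0.40, limma adjusted p = 0.112). The difference after SGLT2i leaned on DM+SGLT2i replicate 1, since without it the log2 fold change was 0.95 (limma adjusted p = 0.9999) and without DM+SGLT2i replicate 2 it was 2.17. The summed level of 10 fibroblast and mural markers was highest in the same libraries as Igfbp1, at 1121 CPM in DM+SGLT2i replicate 1 and 902 CPM in control replicate 2. It was at 598 CPM in DM+SGLT2i replicate 2, so that both DM+SGLT2i mice were above both DM-22 mice (361 and 235 CPM). All 10 markers had a positive log2 fold change between these groups (median 1.36). Of them 4 were at the unadjusted threshold with all 3 controls and 7 without control replicate 2. Control replicates 8 and 9 were at 261 and 368 CPM, which overlapped with DM-22 mice. In DM-22 mice against all 3 controls, 9 of the 10 had a negative log2 fold change (median -0.59, with 1 at the unadjusted threshold), and 6 of 10 without control replicate 2 (median -0.12). The 10 markers were all above 0 in every library. The 10 tubular injury markers also had a positive log2 fold change each in DM+SGLT2i against DM-22 mice (median 0.74, with 0 at the unadjusted threshold and 6 without control replicate 2). Between these groups 3.91% of all genes reached that threshold with all 3 controls, and 10.8% without control replicate 2. Among adipose markers 7 were tested, and 0 reached the unadjusted threshold. In DM-22 mice against all 3 controls 6 of them had a negative log2 fold change (median -1.38). In DM+SGLT2i against DM-22 mice all 7 had a positive one (median 3.31). Adipoq, Plin1 and Cidec were lower in both DM-22 mice than in all other mice, as were 6.75% of all genes. The part of these marker lists in the Igfbp1 and Irs2 differences was not tested.

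Irs2 was also lowest in DM-22 mice, while its highest group was DM+SGLT2i rather than controls. It encodes the adaptor IRS2 (ENSMUSG00000038894, chromosome 8, 10984681 to 11008458, reverse strand). It was at 31.9, 41.9 and 27.1 CPM in controls, at 14.96 and 24.5 CPM in DM-22 mice and at 49.4 and 42.3 CPM in DM+SGLT2i mice. All other mice were above the DM-22 mice and below the DM+SGLT2i mice, the latter by a margin of only 42.3 against 41.9 CPM. The means were 33.6 ± 7.59 CPM in controls (SD, n = 3), 19.7 ± 6.77 CPM in DM-22 mice (SD, n = 2) and 45.9 ± 5.01 CPM in DM+SGLT2i mice (SD, n = 2), which placed DM+SGLT2i 2.32-fold above DM-22 mice. The log2 fold change between these was 1.23 (standard error 0.29, 95% interval 0.53 to 1.94, limma adjusted p = 0.881). By p-value it ranked 19 of all genes tested, and 181 without control replicate 2. Against controls, the limma estimate was -0.77 for DM-22 (standard error 0.27, adjusted p = 0.804), while that for DM+SGLT2i was 0.46 (95% interval -0.18 to 1.10, adjusted p = 0.9997).

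Control replicate 2 lay between the other controls for Irs2, and without it the values were -0.80 (limma adjusted p = 0.176) and 0.44 against controls. DM-22 replicate 1 was the lower of its pair, and without it the difference from controls was -0.42, while without DM-22 replicate 2 it was -1.12. Both DM-22 mice below all other 5 mice was seen for 2 of 10 members, and for 6.75% of all genes (15.2% in either direction). The groups did not overlap for Igfbp1 and Irs2 in DM-22 mice against controls, as for 20.1% of all genes. For Irs2 alone they did not overlap in DM+SGLT2i mice against controls (12.3% of all genes). DM+SGLT2i mice were wholly above DM-22 mice for Igfbp1, Irs2 and Insr (41.5% of all genes in either direction), and 0 members separated all 4 diabetic mice from all 3 controls (2.69% of all genes). Per 1000 CPM of the 12 proximal tubule markers, Irs2 was at 1.17 and 0.909 CPM in DM-22 mice and at 2.87, 1.57 and 1.12 CPM in controls, so that these groups then overlapped. Igfbp1, at 0.323 and 0.139 CPM in DM-22 mice on that scale, was still below every other library (0.421 CPM or more). Over the 7 libraries, which share their scaling, the log2 levels of Irs2 and Igfbp1 had a Pearson r of 0.70.

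**Figure D3:**
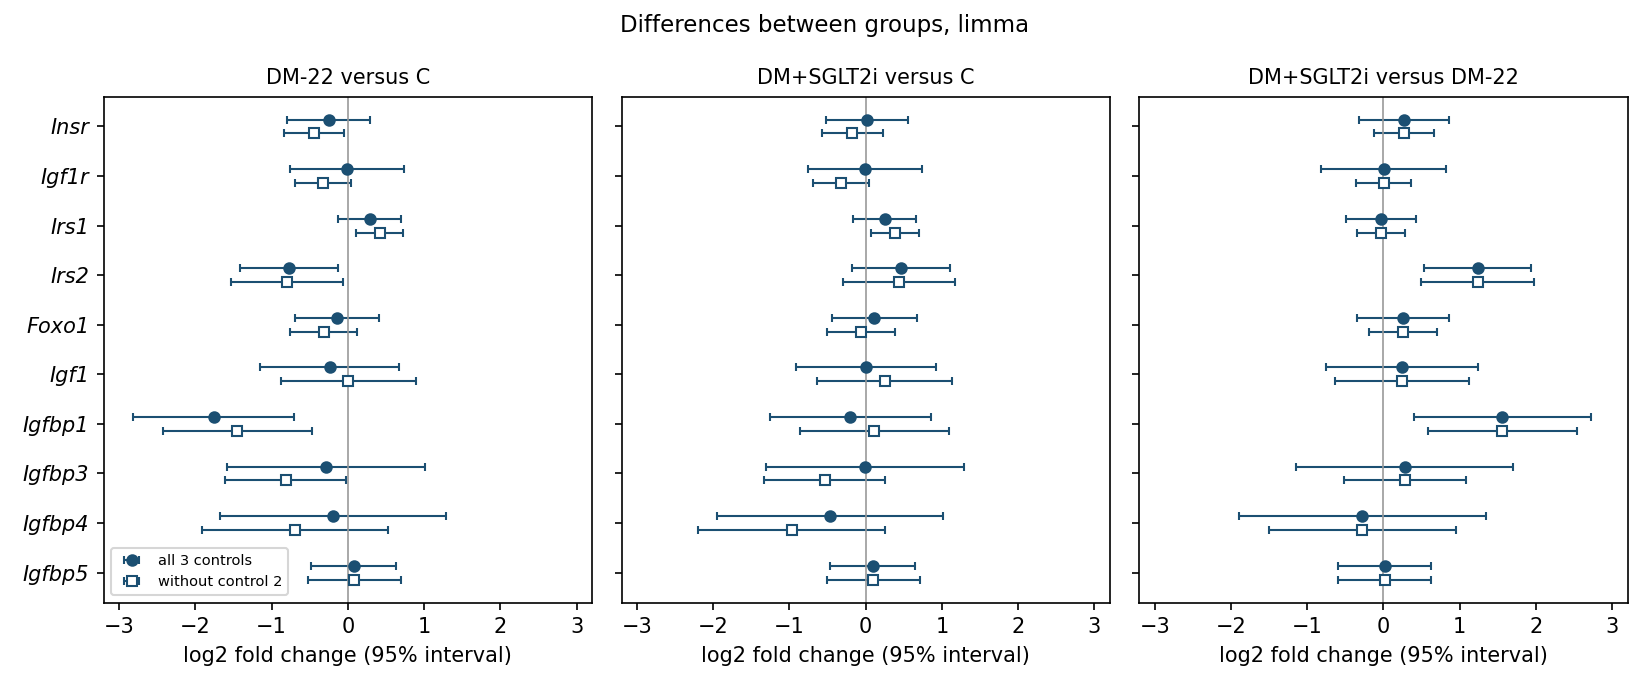
log2 fold change of each gene with its 95% interval from limma, for 3 comparisons. Filled circles use all 3 controls and open squares leave out control replicate 2. The intervals of Igfbp1 and Irs2 lie below 0 for DM-22 against C and above 0 for DM+SGLT2i against DM-22 with both sets of controls.

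The receptors differed less. Insr, the insulin receptor (ENSMUSG00000005534, chromosome 8, 3122061 to 3279617, reverse strand), was at 79.9, 129.8 and 109 CPM in controls, at 90.2 and 84.6 CPM in DM-22 mice and at 118 and 94.2 CPM in DM+SGLT2i mice. Control replicate 2 was the lowest of all 7, so that DM-22 mice lay within the range of the 3 controls and below the other 2. Insr differed in DM-22 mice by -0.25 (log2) with all controls (95% interval -0.79 to 0.29). The difference was -0.44 without control replicate 2 (standard error 0.16, limma adjusted p = 0.169) and -0.095 without control replicate 8. Igf1r, the IGF1 receptor (ENSMUSG00000005533, chromosome 7, 67952827 to 68233668, forward strand), was at 73.3, 155 and 132 CPM in controls, 119 and 109.5 CPM in DM-22 mice and 124 and 105 CPM in DM+SGLT2i mice. All 4 diabetic mice lay between control replicate 2 and the other controls. Its log2 fold change in all diabetic mice was -0.00 with all controls (95% interval -0.63 to 0.62) and -0.32 without control replicate 2 (standard error 0.13, limma adjusted p = 0.195). Between the 2 diabetic groups it was 0.00, with an interval of -0.82 to 0.82. Insr and Igf1r varied together over the 7 libraries (Pearson r of 0.84), with control replicate 2 lowest and control replicate 8 highest for both.

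Irs1, the other adaptor, did not share the pattern of Irs2. Irs1 (ENSMUSG00000055980, chromosome 1, 82233101 to 82291416, reverse strand) was at 19.8, 14.8 and 15.1 CPM in controls, 21.3 and 19.0 CPM in DM-22 mice and 19.6 and 19.7 CPM in DM+SGLT2i mice. The 4 diabetic mice spanned 19.0 to 21.3 CPM, around control replicate 2 and above replicates 8 and 9. The log2 fold change in all diabetic mice was 0.27 with all controls (95% interval -0.08 to 0.62) and 0.40 without control replicate 2 (standard error 0.11, limma adjusted p = 0.110). It was -0.04 between DM+SGLT2i and DM-22 mice (95% interval -0.49 to 0.42). Over the 7 libraries the r between Irs1 and Irs2 was -0.29. Beside Irs1, the summed level of 10 endothelial markers followed the same order closely (r of 0.92), from 760 and 809 CPM in control replicates 8 and 9 to 1155 CPM in DM-22 replicate 1. This was not particular to endothelium. The r was 0.80 for collecting duct and tubular injury markers, 0.79 for thick limb and distal markers and -0.73 for proximal tubule markers. The endothelial marker Kdr went the other way, at 63.2 CPM in DM-22 replicate 1 and 109 CPM in control replicate 8. The part of these lists in Irs1 was not tested.

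Foxo1, the transcription factor at the end of the pathway (ENSMUSG00000044167, chromosome 3, 52268336 to 52353221, forward strand), was at 49.2, 75.5 and 68.6 CPM in controls, 49.5 and 66.9 CPM in DM-22 mice and 74.6 and 63.3 CPM in DM+SGLT2i mice. The groups overlapped. Foxo1 differed in DM-22 mice by -0.14 (log2) with all controls (95% interval -0.69 to 0.41), and by 0.078 without DM-22 replicate 1. Without control replicate 2, Foxo1 differed by -0.32 (95% interval -0.76 to 0.13). Its RNA says nothing of where the FOXO1 protein was, which AKT controls by phosphorylation. Igf1, the ligand (ENSMUSG00000020053, chromosome 10, 87858265 to 87937042, forward strand), was at 16.5, 7.94 and 11.9 CPM in controls, 13.5 and 7.01 CPM in DM-22 mice and 13.6 and 9.95 CPM in DM+SGLT2i mice. The groups overlapped, and the log2 fold change in all diabetic mice was -0.12 (95% interval -0.88 to 0.65), and 0.13 without control replicate 2. In the order of the libraries Igf1 ran opposite to the summed level of the proximal tubule markers (Spearman's rho of -0.93). This segment makes up most of the kidney cortex.

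Among the other binding proteins, Igfbp4 followed the summed level of the proximal tubule markers most closely. Igfbp4 (ENSMUSG00000017493, chromosome 11, 99041244 to 99054392, forward strand) was at 491, 1435 and 1365 CPM in controls, 499.6 and 1496 CPM in DM-22 mice and 684 and 744 CPM in DM+SGLT2i mice. One control and one DM-22 mouse were thus near 500 CPM, and the others of both groups near 1400 CPM, so that the SD within DM-22 mice was 705 CPM for a mean of 998 CPM (n = 2). The summed level of 12 proximal tubule markers was 11134, 26795 and 24175 CPM in controls, 12774 and 26985 CPM in DM-22 mice and 17419 and 17723 CPM in DM+SGLT2i mice, the same order in all 7 libraries (Spearman's rho of 1, Pearson r of the log2 levels 0.98). Per 1000 CPM of these markers, Igfbp4 lay between 39.1 and 56.5 CPM. Not every marker followed the sum. Aqp1 ran the other way, at 1667 CPM in control replicate 2 and 2121 CPM in DM-22 replicate 1. It was at 1017 CPM in control replicate 8 and 887 CPM in DM-22 replicate 2. Cubn (549 and 520 CPM) and Slc7a13 (681 and 603 CPM) were also higher in DM-22 replicate 1 than in DM-22 replicate 2, and the other markers were lower. In bulk tissue, fewer cells of a type and less RNA per cell cannot be told apart. The log2 fold change of Igfbp4 in DM-22 mice was -0.19 (95% interval -1.67 to 1.29), the widest interval of the members, and -0.69 without control replicate 2 (95% interval -1.92 to 0.53). It was 0.60 without DM-22 replicate 1 and -0.98 without DM-22 replicate 2. In DM+SGLT2i mice it was -0.47 (95% interval -1.95 to 1.01), and -0.97 without control replicate 2 (95% interval -2.20 to 0.25).

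Igfbp3, which encodes the main IGF carrier of blood (ENSMUSG00000020427, chromosome 11, 7206086 to 7213923, reverse strand), lies beside Igfbp1 on the opposite strand, with 3539 bases between the 3′ ends of the genes, which face each other. It was at 93.7, 229 and 349.8 CPM in controls, 120.0 and 215 CPM in DM-22 mice and 199 and 191 CPM in DM+SGLT2i mice. The controls alone spanned the values of all diabetic mice, and control replicates 8 and 9 lay above them. For Igfbp3 the log2 difference of DM-22 mice was -0.29 with all controls (95% interval -1.59 to 1.01) and -0.82 without control replicate 2 (standard error 0.32, limma adjusted p = 0.191). It was 0.13 without control replicate 9, and also without DM-22 replicate 1. In DM+SGLT2i mice it was -0.01 with all controls and -0.54 without control replicate 2 (95% interval of the latter -1.34 to 0.26). Although next to each other on the chromosome, Igfbp1 and Igfbp3 had an r of -0.12 over the 7 libraries, whereas Igfbp3 and Igfbp4 had an r of 0.84. The r of Igfbp3 with the summed level of the proximal tubule markers was 0.87.

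**Figure D4:**
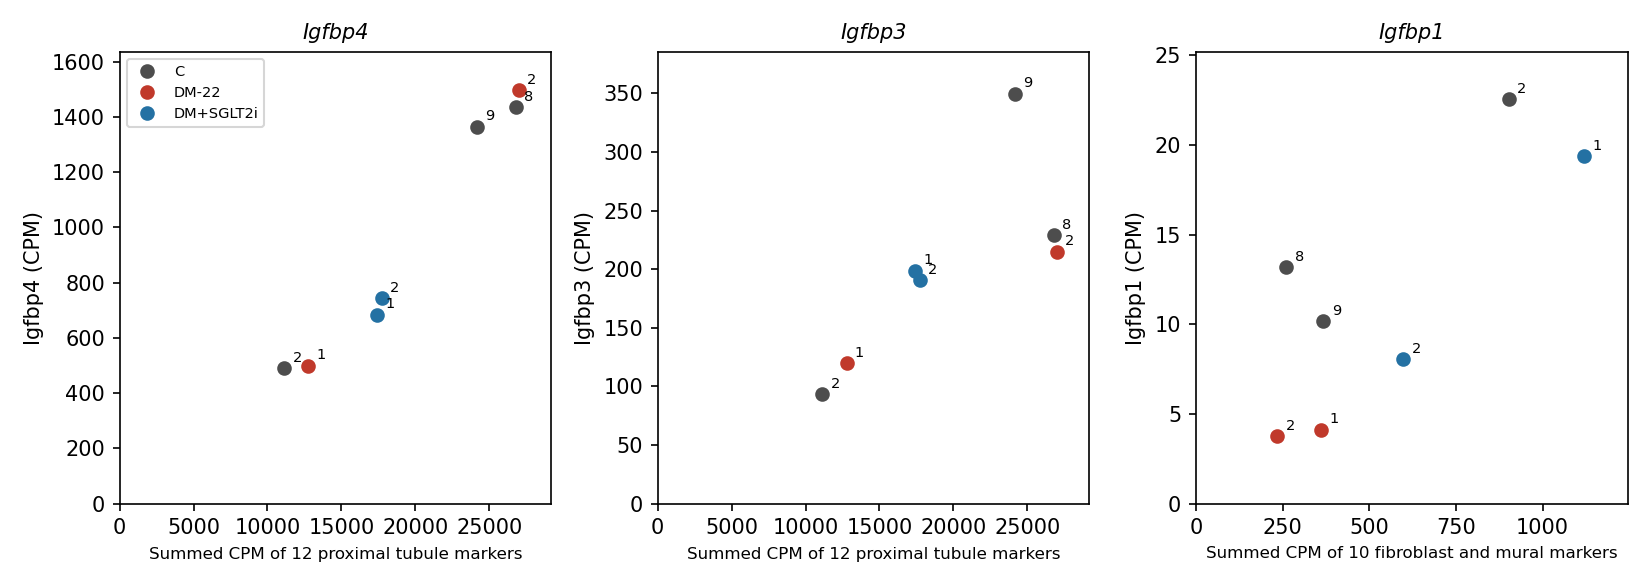
CPM of Igfbp4 and Igfbp3 against the summed CPM of 12 proximal tubule markers, and of Igfbp1 against 10 fibroblast and mural markers, with 1 point per library and its replicate number. Igfbp4 follows the summed markers in all 7 libraries. For Igfbp1 both DM-22 points are lower than all other points. The part of the markers in these levels was not tested.

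Igfbp5 (ENSMUSG00000026185, chromosome 1, 72857932 to 72874884, reverse strand), which encodes a binding protein that is held in the extracellular matrix, was the most even member. It was at 719.5, 721 and 693 CPM in controls, 869 and 647 CPM in DM-22 mice and 642 and 893 CPM in DM+SGLT2i mice. The controls differed by less than the mice within either diabetic group, and the groups overlapped. Its log2 fold change was 0.08 in DM-22 mice (95% interval -0.48 to 0.63), 0.09 in DM+SGLT2i mice (95% interval -0.46 to 0.65) and 0.02 between them (95% interval -0.59 to 0.62). Control replicate 2 lay between the other controls, and without it the first of these was 0.09.

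Control replicate 2 set much of what the members showed against controls. It was below replicates 8 and 9 for Insr, Igf1r, Igfbp3, Igfbp4 and Foxo1, above them for Irs1, Igf1 and Igfbp1, and between them for Irs2 and Igfbp5. The gap to the mean of the other controls was -1.59 (log2) for Igfbp3, -1.51 for Igfbp4, -0.96 for Igf1r and 0.93 for Igfbp1. The gap exceeded 1 in either direction for 2 of the 10 members and for 15.1% of all genes tested. Without this library the groups did not overlap for 7 members in DM-22 mice against controls (59.5% of all genes), for 5 in DM+SGLT2i mice (61.7%) and for 3 in all diabetic mice (35.9%), shares near or below these backgrounds given that 2 controls remain. The 3 members were Irs1, higher in all 4 diabetic mice than in both remaining controls, and Igf1r and Igfbp3, lower in all 4.

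Other genes of the pathway were taken from lists by role. Of 18 further ligands, receptors, binding proteins and their regulators, 15 were tested, and Ins1 and Igfbpl1 were not listed. Against controls, 1 was higher and 1 lower in DM-22 mice at the unadjusted threshold (4.47% of all genes), and 0 passed the adjusted one. The median log2 fold change was -0.05, against 0.00 over all genes. In DM+SGLT2i mice it was 0.30 against controls (12 of 15 positive) and 0.37 against DM-22 mice (10 of 15 positive). The medians over all genes were -0.01 and 0.00. Ide, which encodes the insulin-degrading enzyme, was at 99.1, 124 and 112 CPM in controls, 203 and 197 CPM in DM-22 mice and 110.2 and 179 CPM in DM+SGLT2i mice. The log2 fold change of Ide against controls was 0.84 (standard error 0.23, limma adjusted p = 0.804). Cpm, which encodes the membrane enzyme carboxypeptidase M, was at 46.1, 43.4 and 66.3 CPM in controls, 28.7 and 26.2 CPM in DM-22 mice and 50.2 and 38.0 CPM in DM+SGLT2i mice. Its log2 fold change was -0.89 in DM-22 mice against controls (standard error 0.22, limma adjusted p = 0.804) and 0.66 in DM+SGLT2i against DM-22 mice (limma adjusted p = 0.881). Without control replicate 2, 2 of the 15 were higher and 1 lower in DM-22 mice, and 4 were higher in DM+SGLT2i mice against 1 with it, at a threshold that 25.2% and 17.9% of all genes then reached. For 3 of the 15 (Ide, Cpm and Enpp1) the DM-22 mice lay outside the range of the other 5 mice, as for 15.2% of all genes. Pappa, which encodes a protease that cleaves IGF-binding proteins and frees IGF, was at 12.6, 7.14 and 6.11 CPM in controls, 10.2 and 13.6 CPM in DM-22 mice and 14.6 and 22.5 CPM in DM+SGLT2i mice. In DM+SGLT2i mice against controls its log2 fold change was 1.10 (standard error 0.35, limma adjusted p = 0.9997). Both treated mice were above every control, and 12.3% of all genes separated these groups in either direction.

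Of 28 adaptors and kinases downstream of the receptors, 27 were tested (Irs4 was not listed). With all 3 controls, 0 reached the unadjusted threshold in DM-22 mice, in DM+SGLT2i mice or between them. The shares of all genes that did were 4.47%, 1.08% and 3.91%. Their median log2 fold change in DM-22 mice was 0.01. Tsc2, which encodes a subunit of the complex that restrains mTORC1, was at 115, 136 and 119 CPM in controls and at 145 to 154 CPM in the 4 diabetic mice, without overlap (log2 fold change 0.29, limma adjusted p = 0.988). Of all genes, 2.69% separated these groups and 2.04% reached the unadjusted threshold between them. Without control replicate 2 the log2 fold change of Tsc2 was 0.24 and no longer reached the unadjusted threshold. Without control replicate 2, 3 of the 27 were higher and 6 lower in DM-22 mice at the unadjusted threshold, which 25.2% of all genes reached, and 0 passed the adjusted one.

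Of 21 inhibitors of the pathway, all were tested and 0 passed the adjusted threshold with all 3 controls. Grb14, an inhibitor of the insulin receptor, reached the unadjusted one in all diabetic mice (log2 fold change 0.41, limma adjusted p = 0.988), as did 2.04% of all genes. Without control replicate 2, 4 inhibitors were higher and 3 lower in all diabetic mice at that threshold (24.8% of all genes). In DM-22 mice 3 were then higher and 3 lower (25.2% of all genes). Grb14 was at 23.2, 17.5 and 16 CPM in controls and at 22.8 to 28.5 CPM in diabetic mice. Ptpn2, a phosphatase that acts on the insulin receptor, was lower in all 4 diabetic mice (13.0 to 14.6 CPM) than in the controls (15.8 to 18.7 CPM), and Sesn2, a stress-induced inhibitor of mTORC1, was higher (60.4 to 113 CPM against 56.5 to 58.6 CPM). Of all genes, 2.69% separated these groups in either direction. With all 3 controls, neither Ptpn2 nor Sesn2 reached the unadjusted threshold in that comparison. Without control replicate 2 Ptpn2 did, as did 24.8% of all genes. Phlda3, which encodes an inhibitor of AKT, was the only one of the inhibitors past the adjusted threshold without control replicate 2. Of all genes, 0.0143% then passed it in DM-22 mice, 0.122% in DM+SGLT2i mice and 0.2% in all diabetic mice. The library left out had the highest level of Phlda3. Phlda3 was at 31.6 CPM in control replicate 2, 5.18 and 4.81 CPM in the other controls and 24.2 to 27.0 CPM in diabetic mice. Its log2 fold change in all diabetic mice was 2.26 without that library (limma adjusted p = 0.0171) and 1.42 with it (adjusted p = 0.988).

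Of 20 other FOXO factors and known FOXO targets, 19 were tested (Foxo6 was below the filter). In DM-22 mice 1 was higher and 0 lower at the unadjusted threshold, a share near the 4.47% of all genes, and the median log2 fold change was 0.11. The 1 gene was Bcl6, a transcriptional repressor, at 17.4, 10.3 and 31.9 CPM in controls, 62.5 and 37.5 CPM in DM-22 mice and 27.2 and 11.51 CPM in DM+SGLT2i mice (log2 fold change in DM-22 mice 1.41, limma adjusted p = 0.804). Without control replicate 2 Bcl6 was at 1.38 and no longer reached the unadjusted threshold, which 25.2% of all genes then reached. The list then held 0 higher genes and 1 lower, Klf15 (-0.63, limma adjusted p = 0.178), a transcription factor gene at -0.27 with all controls. Gadd45a, a growth arrest gene, was above every control (18.4 to 25.0 CPM) in all 4 diabetic mice (26.5 to 42.5 CPM), with a log2 fold change of 0.57 in DM+SGLT2i mice (limma adjusted p = 0.9997). Of all genes, 2.69% separated all diabetic mice from controls in either direction. Pck1, a gluconeogenic target, was at 844 to 1871 CPM in controls, 979.9 and 1851 CPM in DM-22 mice and 2427 and 2043 CPM in DM+SGLT2i mice. Both DM+SGLT2i mice were above all others, while DM-22 mice lay within the controls. Of all genes, 12.3% separated DM+SGLT2i mice from controls and 41.5% separated them from DM-22 mice, in either direction. Pck1 did not reach the unadjusted threshold in any of the comparisons, with or without control replicate 2. G6pc, another gluconeogenic target, was at 248 to 412 CPM in controls, 203 and 947 CPM in DM-22 mice and 323 and 457 CPM in DM+SGLT2i mice, and the groups overlapped. Of 7 genes of the growth hormone axis, which drives Igf1 in liver, 0 reached the unadjusted threshold with all 3 controls, and 2 (Jak2 and Stat5a, both lower in DM-22 mice) without control replicate 2, when 25.2% of all genes did. The median log2 fold change of the axis in DM-22 mice was -0.30, and -0.36 without that library.

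Some clock genes reached the unadjusted threshold against controls and are given beside the members because Igfbp1 and Irs2 are known to vary with feeding and time of day. Of 14 tested, 2 were higher and 5 lower in DM-22 mice (4.47% of all genes reached that threshold), and 2 and 7 without control replicate 2 (25.2% of all genes). In DM+SGLT2i mice against controls 2 were higher and 2 lower (1.08% of all genes), and 0 reached the threshold between DM+SGLT2i and DM-22 mice. Arntl was at 1.21 to 1.77 CPM in controls, 6.48 and 19.4 CPM in DM-22 mice and 5.07 and 8.69 CPM in DM+SGLT2i mice, and Dbp was at 168 to 225 CPM, 83.3 and 37.6 CPM, and 106 and 66.6 CPM. The log2 fold changes against controls had the same sign in both diabetic groups for Arntl (2.54 and 1.82) and for Dbp (-1.85 and -1.26). For Igfbp1 and Irs2 the sign in DM+SGLT2i mice against controls was not settled, since the intervals given above hold 0 and Igfbp1 went from -0.20 to 0.11 without control replicate 2. The time of day at which kidneys were taken is not given in the sources used here, and its part in the members' values was not tested.

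The genes most like each member over the 7 libraries were named by the highest Pearson r of log2(CPM + 0.5) among all genes tested, with no test, since the points share their libraries. They were Mical1 (r of 0.98) and Zfp873 (0.96) for Igfbp1, and Cnksr3 (0.97) and Hhat (0.96) for Irs2. Mical1 was at 2.81 and 2.77 CPM in DM-22 mice and at 3.74 to 5.03 CPM in the others, and Cnksr3 at 21.7 and 26.1 CPM in DM-22 mice and at 27.4 to 32.5 CPM in the others. For the receptors they were Trrap and Cabin1 (both 0.99) for Insr and Eaf1 and Dph1 (both 0.99) for Igf1r. For the remaining members they were Gm3448 and Lrfn3 (both 0.98) for Irs1, Mansc4 (0.996) and Kdr (0.99) for Foxo1, and Csf3r (0.99) and Csnk1e (0.98) for Igf1. Wdr75 and Trim63 (both 0.98) were most like Igfbp3, Acbd4 (0.997) and Isoc2a (0.996) most like Igfbp4, and Crnkl1 and Knop1 (both 0.93) most like Igfbp5. Trim63, a muscle ubiquitin ligase gene and FOXO target, ran from 2.27 CPM in control replicate 2 to 15.6 CPM in control replicate 9, the libraries in which Igfbp3 was also lowest and highest.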

How the data were processed

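Kidney RNA of 7 mice was compared (3 C, 2 DM-22, 2 DM+SGLT2i, grouped by the labels), with 0 columns left out. The authors deposited log2 values of CPM (reads scaled to library size, then between libraries). Per the labels' processing notes, bcl2fastq, FastQC, Trim Galore, STAR and edgeR were used with mm10, and versions are not given in the sources used here. Values shared a floor of -4.66 (0.0395 CPM) for genes without reads. CPM were obtained by undoing the logarithm and subtracting this floor, and the reads behind them were whole for 100% of values up to 5000 reads (tolerance 0.02 reads). One read was worth 0.0180 to 0.0231 CPM.

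Groups were compared with limma 3.58.1 in R 4.3.3 (lmFit, eBayes with trend) on log2(CPM + 0.5), two-sided, over the 13976 genes that reached 1 CPM in 2 or more libraries, with 3 groups in 1 fit and Benjamini-Hochberg adjustment at 0.05. The pseudocount understates changes of low genes. The scripts were tested on simulated data. Gene positions and exon lengths are from GENCODE M21 on GRCm38, in which all 17537 identifiers were found. Summaries used Python 3.11.15, numpy 2.4.6 and pandas 2.3.3. Whether counting used strand is not given. The members and lists were chosen with earlier results of these data known. Named genes were all members, pathway genes at an unadjusted p under 0.05, past the adjusted threshold without control replicate 2 or without overlap between diabetic mice and controls (at most 4 a list), and the 2 genes most like each member. Pck1, G6pc, Enpp1, Klf15, Jak2, Stat5a and Igfbp2 were added after their values were seen. Alternatives were other pseudocounts, filters, scalings, limma-voom, other fits and each library left out.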

Additional observations from a re-analysis of the deposited data

How the results depend on the processing

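No member passed the adjusted threshold under any alternative in which members were refitted, which leaves out the fits chosen after seeing the data, and the values of Igfbp1 and Irs2 kept their direction in DM-22 mice against C and in DM+SGLT2i against DM-22 mice under all of them. Igfbp1 ranged from -2.005 to -1.45 and from 0.95 to 2.17, and Irs2 from -1.12 to -0.42 and from 0.89 to 1.58 (log2). The count of called genes, 0 with all libraries, was between 0 and 2 in DM-22 mice against C, between 0 and 17 in DM+SGLT2i mice against C and between 0 and 28 in all diabetic mice against C with 1 library left out. The highest of each was without C replicate 2. Without that library, limma-voom on recovered reads called 0, 4 and 3 genes (3472, 2522 and 3411 at an unadjusted p under 0.05), and median-of-ratios scaling called 2, 16 and 28 (these fits were chosen after seeing the data). The cause was not tested. With the replicate number as a block (replicate block), limma called 0 genes in DM+SGLT2i against DM-22 mice (696 at an unadjusted p under 0.05). Igfbp1 stayed at 1.56 and Irs2 at 1.23, both with an adjusted p of 0.734. The numbers did not pair the mice (r = -0.04 over 13976 genes).

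Scaling to total reads took the median of all genes from 0.0045 to 0.11 in DM+SGLT2i against DM-22 mice. At the unadjusted threshold it gave 48 higher and 676 lower genes in DM-22 mice against C (166 and 459 as reported; 252 and 396 by median-of-ratios scaling), and 444 and 68 in DM+SGLT2i against DM-22 mice (315 and 232 as reported; 279 and 376).

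Values near 0 changed sign, with the cause not tested. By median-of-ratios scaling, Igf1r was 0.017 in DM-22 mice against C, 0.0025 in all diabetic mice against C and -0.029 in DM+SGLT2i against DM-22 mice, Igfbp5 was -0.014 in the last of these and Igf1 was -0.0029 in DM+SGLT2i mice against C. By scaling to total reads, Igfbp5 was -0.013 in DM-22 mice against C, Igf1r was 0.014 and Igfbp3 0.0101 in DM+SGLT2i mice against C, and Irs1 was 0.069 in DM+SGLT2i against DM-22 mice. In DM+SGLT2i mice against C, Igf1 was -0.00053 with pseudocount 2 and -0.015 by limma-voom.

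Leaving out 1 library at a time also turned signs. In DM-22 mice against C, Igf1 ranged from -0.69 to 0.21, Igf1r from -0.32 to 0.21, Igfbp3 from -0.82 to 0.13, Igfbp4 from -0.98 to 0.60, Igfbp5 from -0.14 to 0.29 and Foxo1 from -0.35 to 0.078. In DM+SGLT2i mice against C, Insr ranged from -0.17 to 0.18, Igf1 from -0.26 to 0.25, Igf1r from -0.32 to 0.21, Igfbp1 from -0.81 to 0.41, Igfbp3 from -0.54 to 0.41, Igfbp5 from -0.15 to 0.33 and Foxo1 from -0.067 to 0.24. In DM+SGLT2i against DM-22 mice, Irs1 ranged from -0.12 to 0.048, Igf1 from -0.21 to 0.69, Igf1r from -0.12 to 0.12, Igfbp3 from -0.14 to 0.70, Igfbp4 from -1.07 to 0.51 and Igfbp5 from -0.22 to 0.25. In all diabetic mice against C, Insr ranged from -0.31 to 0.0404, Irs2 from -0.33 to 0.018, Igf1 from -0.38 to 0.13, Igf1r from -0.32 to 0.21, Igfbp3 from -0.68 to 0.27, Igfbp4 from -0.83 to 0.066, Igfbp5 from -0.035 to 0.20 and Foxo1 from -0.19 to 0.11. With 2 mice in each diabetic group, 1 mouse can decide these values.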

Other observations

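Igfbp2, a further IGF-binding protein gene, was not among the genes named by the rule and was looked at after its values were seen. It was at 30.3 CPM in control replicate 2, 0.695 and 0.769 CPM in control replicates 8 and 9, 1.31 and 1.11 CPM in DM-22 mice, and 36.5 and 5.84 CPM in DM+SGLT2i mice. The 2 high libraries, control replicate 2 and DM+SGLT2i replicate 1, were also the highest of the 7 for Igfbp1 (22.6 and 19.4 CPM) and for the summed fibroblast and mural markers (902 and 1121 CPM). Unlike Igfbp1, Igfbp2 was as low in control replicates 8 and 9 as in DM-22 mice. With all 3 controls its log2 fold change in DM+SGLT2i against DM-22 mice was 3.16 (standard error 1.65, limma adjusted p = 0.881).

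The proximal tubule markers differed between mice of 1 group. Their summed level was lowest in DM-22 replicate 1 and control replicate 2 (12774 and 11134 CPM). Of these markers, Aqp1, Cubn and Slc7a13 were instead higher in DM-22 replicate 1 than in DM-22 replicate 2. The summed level of the 7 thick limb and distal tubule markers was highest in DM-22 replicate 1 (13183 CPM, against 4528 to 8630 CPM elsewhere). That sum came mostly from Slc12a1 (5580 CPM) and Umod (6933 CPM), both highest in this mouse. Slc12a3 (340 CPM), Pvalb (7.34 CPM) and Trpm6 (7.96 CPM) were instead lowest in it of all 7 libraries. Cldn16 and Calb1 lay between the other libraries. The difference between the DM-22 mice in Igfbp4 (499.6 and 1496 CPM) and Igfbp3 (120.0 and 215 CPM) had the direction of that in the summed proximal tubule markers, as had those in Irs2 (14.96 and 24.5 CPM) and Foxo1 (49.5 and 66.9 CPM). The other 6 of the 10 members were higher in the mouse with the lower sum of these markers, from Igf1 (13.5 and 7.01 CPM) and Igfbp5 (869 and 647 CPM) to Irs1, Igf1r, Igfbp1 (4.12 and 3.75 CPM) and Insr (90.2 and 84.6 CPM). Their part in these values was not tested.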
